A study of Mus musculus with 6 samples.

Results

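Marrow stromal niche factors are the genes through which mesenchymal cells of the marrow retain, feed and instruct blood-forming cells. The set comprised 10 genes, *Cxcl12*, *Kitl*, *Lepr*, *Foxc1*, *Ebf3*, *Il7*, *Vcam1*, *Il15*, *Prrx1* and *Thpo*, found by gene symbol among the 56980 genes in the counts of cultured bone marrow mesenchymal stromal cells (BM MSCs). All 10 were present, each with a single row, and 9 passed the filter on low counts that left 15190 genes for testing. Of these 9 genes, *Vcam1* rose and *Cxcl12* and *Lepr* fell in cells of the TranspExer group, all by less than 2-fold. The *Lepr* call stood at the edge of the threshold and was lost in 5 of 13 other settings, whereas *Vcam1* and *Cxcl12* lost none. The other 6 tested genes did not pass the test with all samples included.

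The cells came from female mice whose ovaries were removed (ovariectomy, OVX) at 8 weeks of age, and whose gut microbiota was depleted with antibiotics before transplantation. Recipients then received fecal microbiota by gavage (fecal microbiota transplantation, FMT) for 8 weeks, from sedentary OVX donors in the TranspCtrl group and from treadmill-exercised OVX donors in the TranspExer group. The OVX, the antibiotics and the transfer were thus shared by both groups, which differed in the exercise of the donor, and the comparison asks what the donor's exercise changed in the recipient's stromal cells. Marrow flushed from femurs and tibias was cultured for 7 days with repeated washes, with no sort described, and 3 samples per group were sequenced. The labels do not say whether each sample was a separate animal, so the p-values measure the spread between these samples, which may be technical. The strain is not given in the sources used here.

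In the marrow, reticular stromal cells wrapped around the sinusoids express the leptin receptor and release CXCL12, a chemokine that holds stem cells and B cell precursors in place through CXCR4, and stem cell factor, the product of *Kitl*, which keeps stem and progenitor cells alive through KIT. The transcription factors FOXC1 and EBF3 maintain this reticular identity, and EBF3 restrains bone formation by the same cells. PRRX1 marks the limb mesenchyme from which long bone stroma descends. IL7 and IL15 are lymphoid growth factors, VCAM1 tethers cells that carry the integrin α4β1, and thrombopoietin (*Thpo*), made mainly in the liver, drives megakaryocytes and stem cell quiescence.

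Total counts lay between 17647682 and 21319228 per sample, so that 3 counts, the floor used here, equalled 0.139 to 0.174 CPM (counts scaled to the size of the library with edgeR's TMM factors). These limits cover counting error only. Replicates of a group differed by more than counting error, where counting error alone gives a mean chi-square per gene of 1. It was 3.79 between TranspCtrl replicates 2 and 3, 59.0 and 53.3 between TranspCtrl replicate 1 and these, and 4.53 to 7.97 between TranspExer samples. TranspCtrl replicate 1 stood apart, with a mean Euclidean distance of 61.5 to the other samples of its group on the log2 CPM scale, against 48.6 to 49.9 for the other TranspCtrl samples and 43.3 to 43.8 for the TranspExer samples. It was the lowest TranspCtrl sample for *Cxcl12*, *Kitl*, *Lepr*, *Foxc1*, *Ebf3* and *Prrx1* and the highest for *Il7*, *Vcam1* and *Il15*, and values without it are given where they change a call or a direction. For the labelled cell type, 15 mesenchymal markers were looked at. All 15 passed the low-count filter, but so did all 14 endothelial and all 12 macrophage markers, so the filter does not tell cell types apart. The summed level of the mesenchymal markers was 16137 to 24840 CPM in TranspCtrl and 16148 to 17712 CPM in TranspExer samples. Macrophage markers were also abundant, with a summed level of 9379 to 14305 CPM in TranspCtrl and 7548 to 8173 CPM in TranspExer samples. Of this sum, *Lyz2* alone held 4895 to 9102 CPM in TranspCtrl and 2596 to 3235 CPM in TranspExer samples. The list was mixed in direction, as given further on.

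Promoter sequences from RefSeq (GRCm38.p6, 250 bases before to 50 after a transcript start, shown 5′ to 3′ on the strand of the gene) were matched by symbol for 7 of the 10 genes, with 9 promoters in all. *Il7*, *Vcam1* and *Il15* had no entry. Both strands were searched for TATAAA (the core promoter box), CCCNNGGG (core of the EBF site), TGTTTAC (FOX), TAATTA (homeodomain), GGNNTTTCC (NF-kB) and ACGTG (HIF core). The 4 promoters below are shown because *Cxcl12* and *Lepr* were the factors that fell, while *Kitl* and *Ebf3* did not pass the test, and capitals mark the match.
*Cxcl12*, chr6:117168285-117168584, plus strand: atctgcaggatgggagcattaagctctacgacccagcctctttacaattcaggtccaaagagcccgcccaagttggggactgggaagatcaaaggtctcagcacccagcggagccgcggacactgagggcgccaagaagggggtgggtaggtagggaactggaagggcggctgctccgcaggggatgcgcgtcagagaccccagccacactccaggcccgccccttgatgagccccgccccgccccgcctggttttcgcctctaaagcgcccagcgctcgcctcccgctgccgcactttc
*Lepr*, chr4:101717157-101717456, plus strand: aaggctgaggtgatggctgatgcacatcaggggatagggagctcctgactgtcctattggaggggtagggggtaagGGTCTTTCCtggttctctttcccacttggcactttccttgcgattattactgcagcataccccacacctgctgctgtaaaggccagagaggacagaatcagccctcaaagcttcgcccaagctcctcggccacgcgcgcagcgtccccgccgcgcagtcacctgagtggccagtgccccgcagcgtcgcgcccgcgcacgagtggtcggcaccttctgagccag
*Kitl*, chr10:100015571-100015870, plus strand: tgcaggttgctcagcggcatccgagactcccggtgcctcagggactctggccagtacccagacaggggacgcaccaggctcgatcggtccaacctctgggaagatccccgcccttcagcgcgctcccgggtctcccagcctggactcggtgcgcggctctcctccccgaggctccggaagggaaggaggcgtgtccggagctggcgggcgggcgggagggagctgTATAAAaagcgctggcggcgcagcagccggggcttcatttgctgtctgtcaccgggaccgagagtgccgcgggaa
*Ebf3*, chr7:137314396-137314695, minus strand: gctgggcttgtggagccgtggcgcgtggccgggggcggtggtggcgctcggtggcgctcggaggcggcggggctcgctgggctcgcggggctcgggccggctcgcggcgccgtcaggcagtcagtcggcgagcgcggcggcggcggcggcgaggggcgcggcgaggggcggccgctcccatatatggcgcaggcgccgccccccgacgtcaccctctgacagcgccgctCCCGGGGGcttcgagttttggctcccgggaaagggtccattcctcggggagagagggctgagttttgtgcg

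The *Cxcl12* promoter was rich in G and C (64.7%, with 20 CG dinucleotides) and held none of the 6 motifs. The *Lepr* promoter held an NF-kB motif that began 174 bases before the start, a motif found in 5.82% of all 32851 promoters in the table. The *Kitl* promoter carried the core promoter box 25 bases before the start, found in 13.6% of promoters. The *Ebf3* promoter, with 77.0% G and C and 46 CG dinucleotides against medians of 52.7% and 7 over all promoters, held the EBF core 21 bases before its own start. This core reads the same on both strands and was found in 13.7% of promoters. The promoter of *Prrx1*, itself a homeodomain factor, held a homeodomain motif 173 bases before the start, found in 5.29% of promoters, and no promoter of the set held the FOX motif (3.65% of promoters) or the HIF core (19.6%). The promoters of *Foxc1*, both of *Thpo* and the other of *Lepr* held none of the 6 motifs.

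Compared by length-scaled level (TPM, from the gene lengths in the deposited table), the factors spanned a wide range. *Cxcl12* was the highest in both groups, with a mean of 521 TPM in TranspCtrl and 371 TPM in TranspExer samples. *Vcam1* followed with 170 and 262 TPM, and *Prrx1* with 87.1 and 71.7 TPM. *Kitl*, *Foxc1* and *Ebf3* formed a middle tier between 21.4 and 32.9 TPM. *Il15* (10.7 and 9.47 TPM), *Lepr* (5.20 and 3.69 TPM) and *Il7* (3.53 and 2.56 TPM) were low, and *Thpo* was close to absent (0.120 and 0.0465 TPM). Neighbours in this order did not overlap between samples of a group, except *Foxc1* and *Ebf3* in TranspCtrl and *Kitl* and *Foxc1* in TranspExer samples. The plot of length-scaled levels shows the order and the lone low *Foxc1* value.

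**Figure D1:**
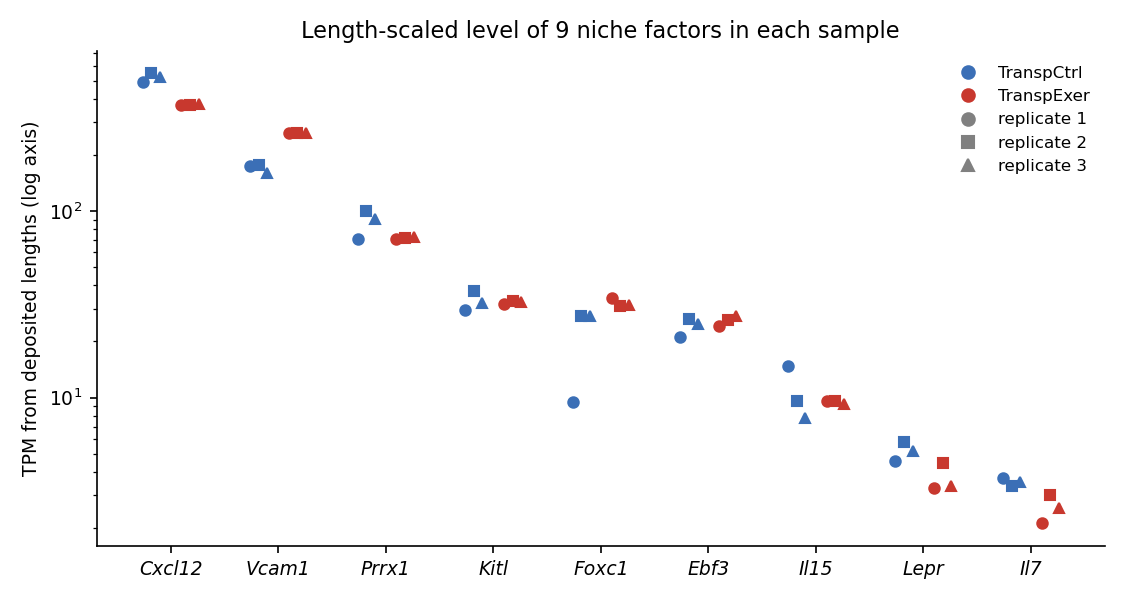
Length-scaled level (TPM, log axis) of 9 niche factors in each of the 3 TranspCtrl and 3 TranspExer samples, with 1 point per sample and the replicate given by the marker shape; *Thpo* is left out because 2 samples were at 0. *Cxcl12* lies highest at 370 to 547 TPM and *Il7* lowest at 2.12 to 3.71 TPM, and *Foxc1* in TranspCtrl replicate 1 lies at 9.47 TPM.

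Among the secreted factors, *Cxcl12* (ENSMUSG00000061353, chromosome 6, 117168535 to 117181368 in GRCm38.p6) fell. The TranspCtrl samples held 1317, 1446 and 1425 CPM and the TranspExer samples 1033, 1003 and 1014 CPM. Every TranspExer sample lay under every TranspCtrl sample, and the mean fell by 27.2%, from 1396 ± 69.3 to 1016 ± 15.3 CPM (SD, n = 3 per group). The log2 fold change was -0.46 (SE 0.08, 95% interval -0.65 to -0.27, adjusted p = 0.0051 by edgeR's quasi-likelihood test, Benjamini-Hochberg adjusted over the 15190 genes). Mesenchymal markers moved in the same direction for the most part, as given further on, and their part in the lower *Cxcl12* level was not tested. In such bulk samples, fewer cells of a type and less RNA per cell cannot be told apart.

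*Kitl* (ENSMUSG00000019966), the ligand of KIT, was measured at 79.1, 98.9 and 87.3 CPM in TranspCtrl and at 89.1, 90.2 and 88.8 CPM in TranspExer samples. The TranspExer values fell inside the TranspCtrl range. The log2 fold change was 0.02, with a 95% interval from -0.20 to 0.23 (edgeR adjusted p = 0.913), and its sign turned with upper-quartile or library-size scaling and without TranspCtrl replicate 1 (-0.06).

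The lymphoid factor *Il7* (ENSMUSG00000040329) was a low transcript with 98 to 177 counts per sample. It was at 8.59, 7.70 and 8.23 CPM in TranspCtrl and 5.13, 7.03 and 6.01 CPM in TranspExer samples, so the groups did not overlap. Its log2 fold change was -0.44 (95% interval -0.77 to -0.10), which narrowly missed the threshold (edgeR adjusted p = 0.0544) and passed it without TranspCtrl replicate 1 (adjusted p = 0.0466). An antisense gene, Gm16685, overlaps its exons by 105 bases and held 38, 14 and 23 counts in TranspCtrl against 3, 4 and 4 in TranspExer samples. How reads were assigned between the overlapping genes is not given in the sources used here.

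*Il15* (ENSMUSG00000031712), the growth factor of natural killer cells and memory T cells, was at 8.25, 5.24 and 4.37 CPM in TranspCtrl and 5.55, 5.40 and 5.17 CPM in TranspExer samples. The spread of the TranspCtrl samples covered the TranspExer values, and the log2 fold change of -0.15 (95% interval -0.68 to 0.39, edgeR adjusted p = 0.651) became 0.16 without TranspCtrl replicate 1, its highest sample. *Thpo* (ENSMUSG00000022847) was counted 1, 0 and 5 times in TranspCtrl and 1, 1 and 0 times in TranspExer samples, was not tested, and shares 239 exonic bases with the antisense gene *Chrd*. A difference in *Thpo* was not detectable at this depth.

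The adhesion molecule *Vcam1* (ENSMUSG00000027962, chromosome 3, 116110020 to 116129688) was the only factor called higher with all samples. It measured 289, 287 and 267 CPM in TranspCtrl and 452, 440 and 436 CPM in TranspExer samples. The groups were far apart compared with their spread, with means of 281 ± 12 and 442 ± 8.24 CPM (SD, n = 3), a gain of 57.3%. The log2 fold change was 0.65 (SE 0.08, 95% interval 0.48 to 0.83, edgeR adjusted p = 0.000726). VCAM1 is carried by endothelial cells and macrophages as well as by stroma. All 14 endothelial markers rose with it, against 16.6% of all tested genes, their summed level going from 239 to 302 CPM in TranspCtrl to 798 to 870 CPM in TranspExer samples with none listed at 0, and their part in the *Vcam1* level was not tested. *Vcam1* and *Cxcl12* moved in opposite directions, and both kept their direction and their call under each of the 13 other settings, including the fits without TranspCtrl replicate 1.

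The leptin receptor gene *Lepr* (ENSMUSG00000057722, chromosome 4, 101717137 to 101815352), the marker that defines the perisinusoidal reticular cells, was low in these cultures with 128 to 222 counts per sample. TranspCtrl samples held 9.08, 11.24 and 10.32 CPM and TranspExer samples 6.70, 8.83 and 6.66 CPM. The groups did not overlap, although the lowest TranspCtrl value stood only just above the highest TranspExer value. The log2 fold change was -0.47 (SE 0.15, 95% interval -0.82 to -0.11), with an edgeR adjusted p of 0.0494 at the edge of the threshold. The call was lost with DESeq2 (adjusted p = 0.0623), and without TranspCtrl replicate 2 (0.125), TranspCtrl replicate 3 (0.105), TranspExer replicate 1 (0.145) or TranspExer replicate 3 (0.151), with the direction kept each time.

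**Figure D2:**
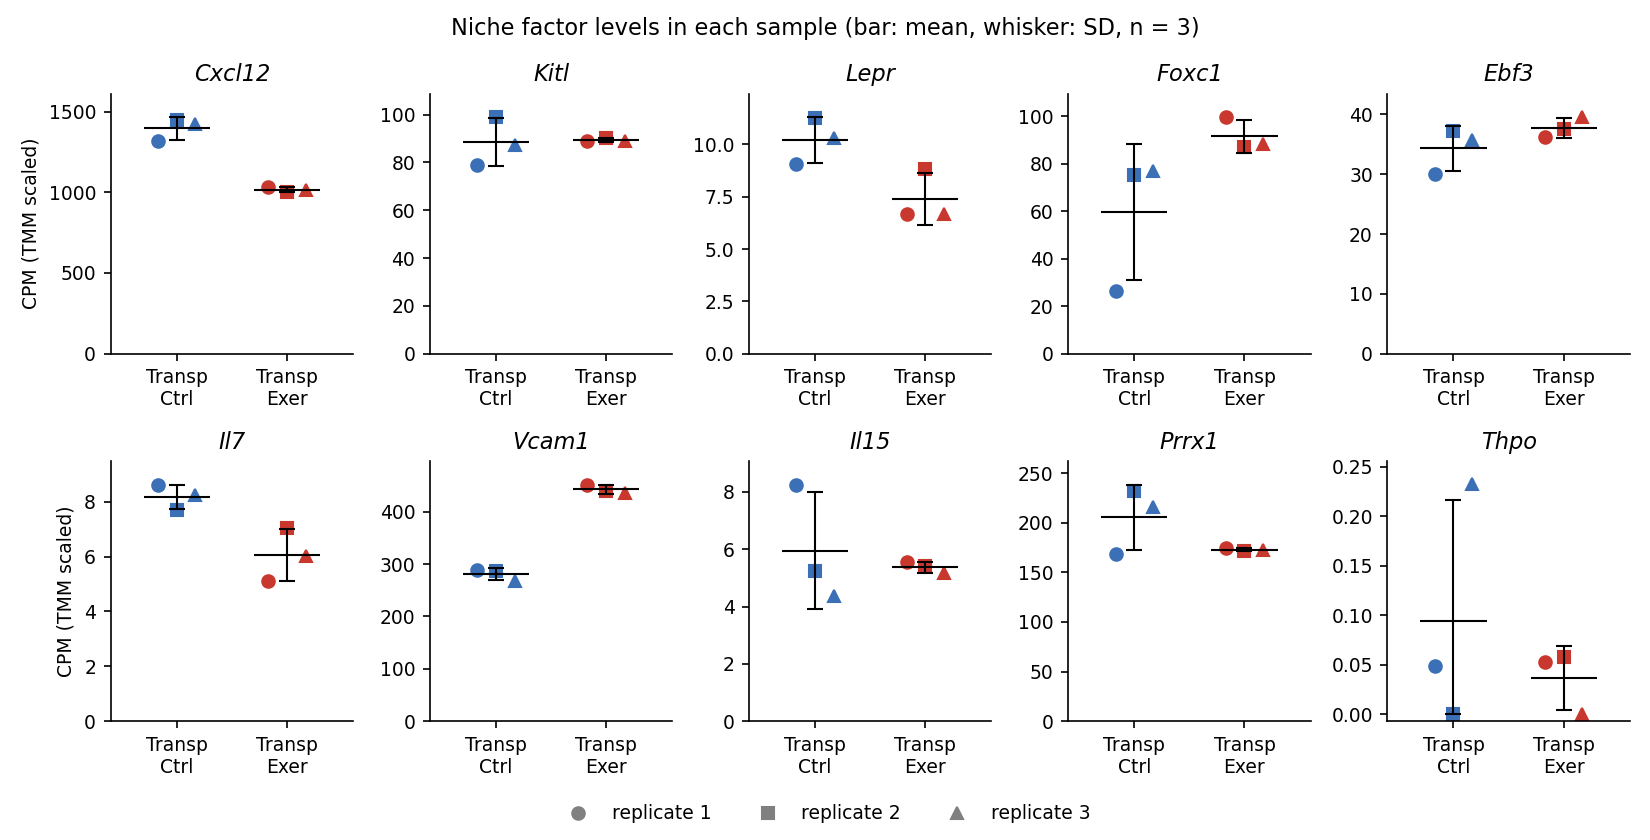
CPM of each of the 10 niche factors in the 3 TranspCtrl (blue) and 3 TranspExer (red) samples, with 1 marker per sample, a bar at the mean and whiskers of 1 SD (cut at 0 for *Thpo*); each panel has its own linear axis that includes 0. The groups are separate for *Cxcl12*, *Lepr*, *Foxc1*, *Il7* and *Vcam1*, and TranspCtrl replicate 1 (circle) lies far under its group for *Foxc1* (26.4 CPM) and over it for *Il15* (8.25 CPM).

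Of the transcription factors, *Foxc1* (ENSMUSG00000050295) was at 26.4, 75.5 and 77.0 CPM in TranspCtrl and 99.7, 86.9 and 88.4 CPM in TranspExer samples. The TranspExer values lay above all TranspCtrl values, but TranspCtrl replicate 1 lay far under the others of its group, at a log2 ratio of -1.53 to the mean of replicates 2 and 3. With all samples the log2 fold change was 0.62 (SE 0.34, 95% interval -0.16 to 1.40) and was not called (edgeR adjusted p = 0.192). Without TranspCtrl replicate 1 it shrank to 0.27 and was called (edgeR adjusted p = 0.00616).

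*Prrx1* (ENSMUSG00000026586) was at 168, 232 and 216 CPM in TranspCtrl and 175, 172 and 172 CPM in TranspExer samples, and TranspCtrl replicate 1 lay under all TranspExer values while the other 2 TranspCtrl samples lay above them. The log2 fold change was -0.25 (95% interval -0.52 to 0.03, edgeR adjusted p = 0.146) with all samples and -0.37 (adjusted p = 9.19e-05) without TranspCtrl replicate 1.

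*Ebf3* (ENSMUSG00000010476) was at 30.0, 37.2 and 35.8 CPM in TranspCtrl and 36.2, 37.5 and 39.5 CPM in TranspExer samples, with overlapping groups. Its log2 fold change was 0.14 (95% interval -0.09 to 0.36, edgeR adjusted p = 0.321) and 0.05 without TranspCtrl replicate 1 (adjusted p = 0.608). With all samples, a change of 2-fold in either direction lay outside the interval. *Ebf1*, its relative that acts both in stroma and in B cells, was at 53.3 ± 10.9 CPM in TranspCtrl and 53.0 ± 5.36 CPM in TranspExer samples (SD, n = 3), with a log2 fold change of -0.01 (edgeR adjusted p = 0.976).

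Counted over the set, 3 of 9 tested factors passed the test, against 32.2% of all tested genes. In the 2 directions, 1 of 9 was higher, against 16.6% of all genes, and 2 of 9 were lower, against 15.5%. None reached the fold change of 2 that the study added to its threshold, which 8.78% of all genes met together with the adjusted p. The groups did not overlap for 5 of 9 factors, against 52.4% of all genes. The shares called in the set were thus near those of all genes. The median log2 fold change was -0.15, beside -0.02 over all genes, and the median size was 0.44, beside 0.29 over all genes. An exact two-sided permutation test of 3 against 3 samples cannot give a p under 0.1, and the adjusted p-values here use a variance that edgeR shares across genes. Without TranspCtrl replicate 1, 2 factors were called higher (*Vcam1* and *Foxc1*) and 4 lower (*Cxcl12*, *Lepr*, *Il7* and *Prrx1*), against 22.1% of all genes higher and 19.6% lower in that fit (41.7% in either direction), and the median of the set was -0.06 (-0.0005 over all genes).

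**Figure D3:**
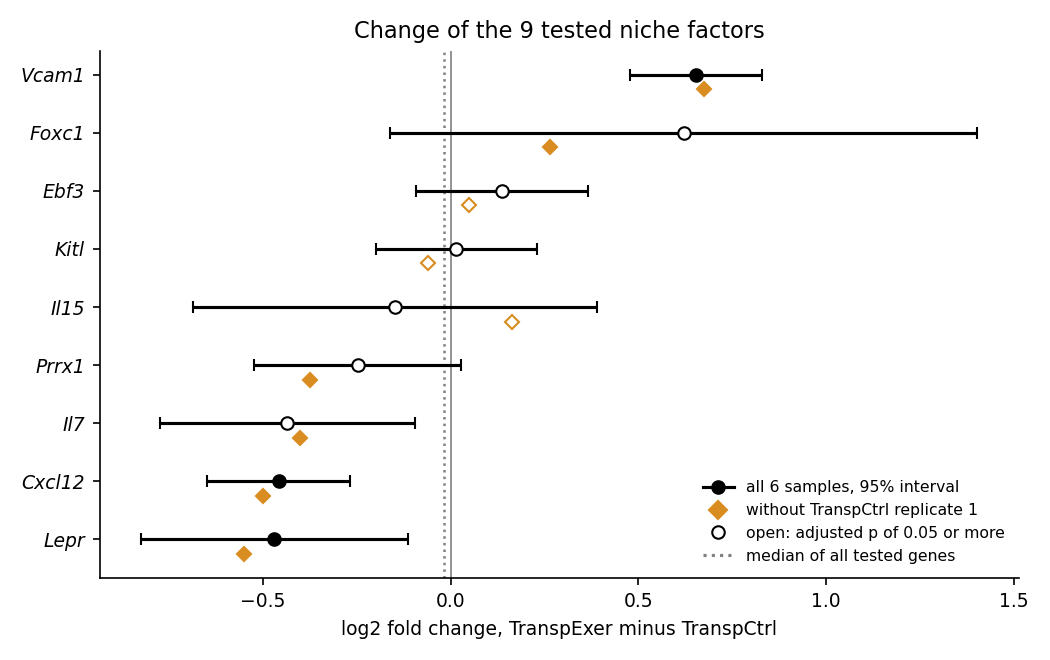
Log2 fold change (TranspExer minus TranspCtrl, horizontal axis) of the 9 tested niche factors, with the 95% interval from all 6 samples (circles) and the value without TranspCtrl replicate 1 (diamonds); filled markers have an adjusted p under 0.05. *Vcam1* lies at 0.65, *Cxcl12* at -0.46 and *Lepr* at -0.47, and the *Foxc1* circle at 0.62 moves to 0.27 as a diamond.

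Receptors and partners of the factors were taken as a list of 16 genes, of which 15 were tested and *Lep*, the leptin gene, was listed at 0 in every sample. In the TranspExer group 5 were called higher and 6 lower, against 16.6% and 15.5% of all tested genes, with 2 higher and 2 lower by at least 2-fold, and the median log2 fold change was -0.12, beside -0.02 over all genes, or -0.07 without TranspCtrl replicate 1. *Cxcr4*, *Kit* and *Il7r*, which are carried by blood progenitors and by lymphoid or mast cells, all rose. *Cxcr4*, the receptor of CXCL12, went from 91.5, 147 and 143 CPM in TranspCtrl to 217, 215 and 235 CPM in TranspExer samples, a log2 fold change of 0.81 (SE 0.17, edgeR adjusted p = 0.00971) beside the fall of its ligand. *Kit* went from 16.3, 16.0 and 14.7 CPM to 52.5, 50.8 and 53.4 CPM (1.74, SE 0.08, edgeR adjusted p = 2.35e-05), with *Kitl* not called. Both receptors were higher in each TranspExer sample than in any TranspCtrl sample.

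*Il7r*, the α chain of the IL7 receptor, was steady within each group, at 25, 24.95 and 25.34 CPM in TranspCtrl and 108, 106 and 107 CPM in TranspExer samples (2.09, SE 0.07, edgeR adjusted p = 9.98e-06). *Il2rg*, the common γ chain that completes the IL7 and IL15 receptors, moved the other way (-0.54, SE 0.08, edgeR adjusted p = 0.00235). *Il2rb*, the β chain of the IL15 receptor, also fell (-0.50, SE 0.11, edgeR adjusted p = 0.0121), a call lost without TranspExer replicate 2 (adjusted p = 0.0531) or TranspExer replicate 3 (0.0505). Most granulocyte and megakaryocyte markers rose, as *Cxcr4*, *Kit* and *Il7r* did. Of 12 such markers 8 rose, all by at least 2-fold, and none fell, against 16.6% of all tested genes higher and 15.5% lower, with a summed level of 2058 to 3034 CPM in TranspCtrl and 3925 to 4174 CPM in TranspExer samples and none listed at 0. Examples are the megakaryocyte integrin *Itga2b* (1.52), the platelet chemokine *Ppbp* (1.26), the neutrophil protease *Ctsg* (1.88) and the eosinophil peroxidase *Epx* (2.80), given as log2 fold changes with adjusted p-values of 8.85e-05 or lower. The neutrophil genes *S100a8* (-0.17), *S100a9* (-0.07) and *Ltf* (0.07) and the platelet chemokine *Pf4* (0.02), named after their values were seen, did not pass the test with all samples (edgeR adjusted p-values of 0.506 or higher). Without TranspCtrl replicate 1, *S100a9* (0.27, edgeR adjusted p = 0.0198) and *Pf4* (0.26, 0.0089) were called higher. *S100a8* turned to 0.26 in that fit and was not called (0.122). All 14 endothelial markers rose as well. The part of either set of markers in the levels of *Cxcr4*, *Kit* and *Il7r* was not tested.

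In the other direction, *Itga4*, the α4 chain that binds VCAM1, fell while *Vcam1* rose, from 148, 136 and 143 CPM in TranspCtrl to 88.0, 98.6 and 96.7 CPM in TranspExer samples (-0.59, SE 0.08, edgeR adjusted p = 0.00135). *Mmp9*, a protease that can release membrane-bound stem cell factor, fell from 230, 346 and 333 CPM to 53.4, 59.2 and 57.2 CPM (-2.42, SE 0.16, edgeR adjusted p = 6.5e-05), the largest change on this list. *Socs3*, a feedback inhibitor of leptin receptor and cytokine signalling, fell from 79.4 ± 4.6 to 38.8 ± 2.27 CPM (-1.03, SE 0.08, edgeR adjusted p = 0.000131), as *Lepr* did. *Il15ra*, which presents IL15 to neighbouring cells, was at 9.58 ± 1.39 CPM and 8.81 ± 1.09 CPM (SD, n = 3) and was not called (-0.12, edgeR adjusted p = 0.557, and 0.0019 without TranspCtrl replicate 1, adjusted p = 0.992). The plot of ligands and receptors sets each factor above its partners.

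**Figure D4:**
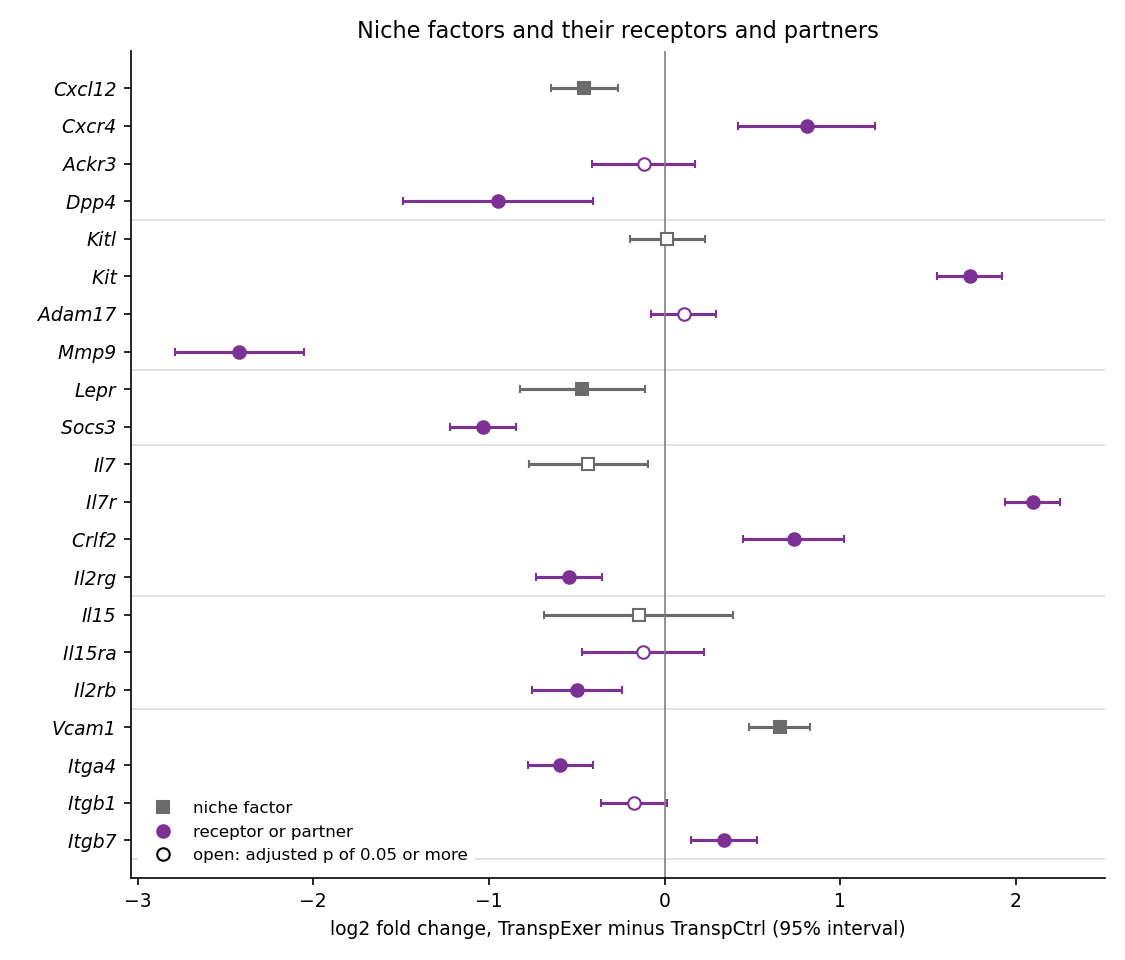
Log2 fold change (TranspExer minus TranspCtrl, with 95% intervals) of the niche factors (squares) and of their receptors and partners (circles), grouped by factor, with filled markers for an adjusted p under 0.05. *Cxcr4* (0.81), *Kit* (1.74) and *Il7r* (2.09) lie to the right of 0, and *Mmp9* (-2.42) lies farthest to the left.

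B cell precursors depend on IL7 and CXCL12 in the marrow. Most tested B lineage markers were lower in the TranspExer group. Of 8 tested markers 6 fell, all by at least 2-fold, and none rose, against 15.5% of all tested genes lower and 16.6% higher. The list's summed level was 1588 to 1965 CPM in TranspCtrl and 419 to 441 CPM in TranspExer samples. Of this, *Jchain* alone held 1222 to 1553 and 261 to 291 CPM. *Pax5* (-0.35, edgeR adjusted p = 0.0718) and *Ebf1* (-0.01, 0.976) did not pass the test with all samples. Without TranspCtrl replicate 1, *Pax5* was called lower (-0.47, edgeR adjusted p = 0.000299). The fall was steepest in plasma cell genes, *Mzb1* (131 ± 19.8 to 11 ± 0.809 CPM, log2 fold change -3.57, edgeR adjusted p = 9.98e-06) and *Jchain* (-2.29, edgeR adjusted p = 3.44e-05). The B cell genes *Ms4a1* (-1.25, edgeR adjusted p = 6.19e-05) and *Cd79b* (-1.38, edgeR adjusted p = 0.000114) also fell. *Vpreb1*, *Igll1* and *Rag1*, the defining genes of the IL7-dependent precursor stages, had too few counts to be tested. The part of these cells in the *Cxcl12*, *Il7* and *Il7r* levels was not tested. Whether the lower markers were related to *Il7* or *Cxcl12* was not tested either.

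Other signals that stroma sends to blood cells were split. Of 23 genes listed, 21 were tested, 5 were called higher and 5 lower, against 16.6% and 15.5% of all tested genes, and the median log2 fold change was -0.09, or -0.06 without TranspCtrl replicate 1. *Jag1*, a Notch ligand, rose from 31.9, 51.5 and 51.4 CPM in TranspCtrl to 114, 115 and 120 CPM in TranspExer samples (1.37, SE 0.17, edgeR adjusted p = 0.000996). The chemokine *Cxcl14* (1.58, edgeR adjusted p = 0.00138) and *Tgfb1*, a quiescence signal (1.34, edgeR adjusted p = 0.00836), rose as well. The growth factor gene *Mdk*, which was near the floor, fell from 1.19 ± 0.122 to 0.332 ± 0.267 CPM (-1.86, edgeR adjusted p = 0.031), a call lost without TranspCtrl replicate 2 (adjusted p = 0.0561), TranspCtrl replicate 3 (0.0675), TranspExer replicate 1 (0.0899) or TranspExer replicate 3 (0.0524).

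Of 19 mesenchymal transcription factors other than those of the set, 17 were tested, 3 were called higher and 4 lower, against 16.6% and 15.5% of all tested genes, and the median log2 fold change was 0.14, or 0.02 without TranspCtrl replicate 1. *Pparg*, the master regulator of fat cells, rose from 20.8 ± 2.00 to 51.6 ± 1.21 CPM (1.31, SE 0.09, edgeR adjusted p = 7.65e-05). *Prrx2*, the paralog of *Prrx1*, fell from 8.47 ± 1.08 to 2.38 ± 0.563 CPM (-1.83, SE 0.20, edgeR adjusted p = 0.000574). *Nr2f2*, a factor of venous endothelium and mesenchyme, was higher (1.15, edgeR adjusted p = 0.0121), a call lost without TranspExer replicate 3 (adjusted p = 0.0548).

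Mesenchymal markers were mostly lower, with 9 of 15 called lower and 3 higher, against 15.5% and 16.6% of all tested genes, and a median log2 fold change of -0.61. *Pdgfra*, a surface receptor of marrow stroma, fell from 112 ± 3.96 to 55.8 ± 0.652 CPM (-1.003, SE 0.07, edgeR adjusted p = 7.67e-05). The matrix genes *Dcn* (-1.76, edgeR adjusted p = 6.69e-05) and *Col3a1* (-1.28, edgeR adjusted p = 8.1e-05) fell, whereas *Cspg4*, the pericyte proteoglycan NG2, rose from 1.95 ± 0.491 to 13.8 ± 1.34 CPM (2.82, SE 0.19, edgeR adjusted p = 6.65e-05). Among the endothelial markers, *Robo4* (2.59), *Kdr* (1.55), *Emcn* (1.52) and *Stab2* (1.43) rose, given as log2 fold changes with edgeR adjusted p-values of 7.57e-05 or lower, and the list's median was 1.55. Macrophage and monocyte markers were mixed, with 3 of 12 called higher, 2 lower and a median of 0.07. *Lyz2*, lysozyme, fell (-1.14, edgeR adjusted p = 0.00873), and lost its call without TranspExer replicate 3 (adjusted p = 0.0506).

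Without TranspCtrl replicate 1, where 22.1% of all tested genes were called higher and 19.6% lower, the same counts were as follows. All 14 endothelial markers were higher, 10 of 12 granulocyte and megakaryocyte markers were higher and none lower, and 7 of 8 B lineage markers were lower and none higher. Of the mesenchymal markers 10 of 15 were lower and 4 higher, of the receptors and partners 7 of 15 were lower and 5 higher, of the other stromal signals 6 of 21 were lower and 5 higher, and of the mesenchymal transcription factors 5 of 17 were lower and 4 higher. Macrophage and monocyte markers had 5 higher and 2 lower of 12. The plot of all lists shows the fits with all samples.

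**Figure D5:**
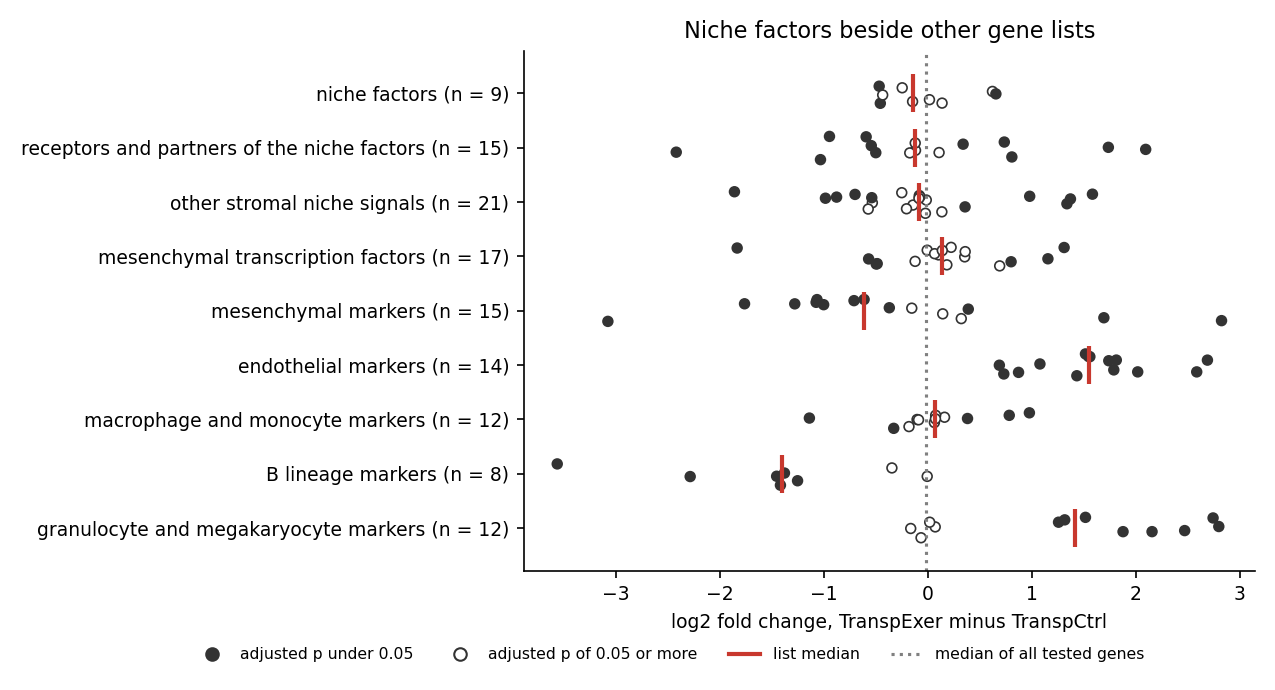
Log2 fold change (TranspExer minus TranspCtrl) of each tested gene in the niche factors and 8 other lists, with filled points for an adjusted p under 0.05, a red bar at the list median and a dotted line at the median of all tested genes; vertical scatter within a list has no meaning. The niche factors lie between -0.47 and 0.65, all 14 endothelial markers lie above 0, and the B lineage median is -1.40.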

How the data were processed

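Gene counts of cultured BM MSCs came from 3 TranspCtrl and 3 TranspExer samples, grouped by the sample labels. The authors deposited expected counts (estimated counts per gene, not normalized, 10.1% to 12.2% of them not whole in a sample) with a gene length for 56980 genes. The build in the submitters' processing notes is mm10. The aligner, the counting tool and the way lengths were set are not given in the sources used here. The library kit is TruSeq in the paper and a stranded mRNA kit in the labels.

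Counts were rounded and tested with edgeR 4.0.16 in R 4.3.3 (filterByExpr, TMM, quasi-likelihood test with group as the only term). P-values were Benjamini-Hochberg adjusted over 15190 genes and called under 0.05. The study's fold change of 2 is given beside these calls. The 95% intervals used standard errors derived from the F statistic. TPM used the deposited lengths, and distances between samples used log2 CPM with a prior count of 2. Tests were checked on simulated data.

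The members and the gene lists were chosen with earlier results of these data known. Named genes were the 10 members, up to 4 genes per other list past both thresholds by smallest adjusted p, and *Cxcr4*, *Kit*, *Il7r*, *Il15ra*, *Itga4* and *Ebf1*. *Lep*, *Il2rg*, *Il2rb*, *S100a8*, *S100a9*, *Ltf*, *Pf4*, the overlapping antisense genes and genes too low to test are named outside this rule, chosen after their values were seen, and an item of the rule is not reported here. Alternatives were DESeq2 1.42.0, other normalizations and filters, the replicate block and leaving out each sample.

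All 10 members were found in GENCODE M21, which gave the overlaps between exons. Coordinates of genes and promoters are those of RefSeq (GRCm38.p6).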

Additional observations from a re-analysis of the deposited data

How the results depend on the processing

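*Cxcl12* (log2 fold change -0.54 to -0.43, highest adjusted p 0.0323) and *Vcam1* (0.57 to 0.67, highest adjusted p 0.00818) kept their direction and call in all 13 alternative fits. The count of niche factors called higher, 1 with all samples, ranged from 1 to 2 when a sample was left out (2 without TranspCtrl replicate 1), and was 0 with the fold change of 2 added. The count called lower, 2 with all samples, ranged from 1 to 4 when a sample was left out. It was 4 with upper-quartile normalization and 4 with scaling by library size only, which also called *Il7* (adjusted p 0.0379 and 0.037) and *Prrx1* (0.0419 and 0.037). It was 1 with the DESeq2 test, which lost *Lepr*, and 0 with the fold change of 2 added. *Il7* also passed with a filter of 1 CPM (adjusted p 0.0466). *Kitl*, at 0.02, turned to -0.061 with upper-quartile normalization, -0.0682 with library size only, -0.0106 with the filter of 1 CPM and -0.0599 without TranspCtrl replicate 1, with a highest value of 0.11 when a sample was left out. *Il15*, at -0.15, ranged from -0.33 to 0.16 when a sample was left out. The cause of these shifts was not tested.

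Over all genes, 2523 were called higher (1315 to 3417 when a sample was left out, 531 with the fold change of 2) and 2361 lower (1325 to 3041, and 802). The lowest counts were without TranspExer replicate 2 and the highest without TranspCtrl replicate 1. Higher calls were 51.7% of all calls, against 41.4% with upper-quartile normalization (2052 higher, 2901 lower) and 40.5% with library size only (2013 and 2962), which moved the median log2 fold change from -0.02 to -0.10. The replicate block gave 1 niche factor higher and 2 lower, and 2484 genes higher and 2218 lower. Deviations of same-numbered samples from their group means correlated at 0.02, -0.0017 and 0.04, and those of different-numbered samples at -0.08 to 0.07. No pairing by replicate number was seen, although 3 samples per group cannot exclude one. With 93 to 177 counts per sample, *Il7* and *Il15* had the fewest counts of the tested factors.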

Other observations

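For each tested niche factor with a mean of at least 10 CPM, the genes with the most similar log2 CPM pattern over the 6 samples were looked up among the 15190 tested genes. The samples fall into 2 groups, so that similarity mixes the difference between groups with the spread inside them, and it is given as a description only. *Stc2* and *Calu* were closest to *Cxcl12*, with *Stc2*, a secreted glycoprotein gene, at a log2 fold change of -1.53. *Map3k7cl* and *Mcam* were closest to *Vcam1*, and *Mcam*, which encodes the adhesion molecule CD146 of pericytes and endothelium, had a log2 fold change of 1.01. *Foxc1*, low in TranspCtrl replicate 1, was closest to *Mrfap1* and *Pabpc1*, *Prrx1* to *Acvr2a* and *Glis2*, *Ebf3* to *Galnt2* and *Ipo9*, and *Kitl* to *Iws1* and *Nub1*. *Lepr*, *Il7* and *Il15* had means under 10 CPM and were not compared.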
